A study of Homo sapiens with 12 samples.

Results

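TNF receptors and the proteins that bind them first were followed at the message level in HK2, an immortalized human line of proximal tubular epithelial cells. The 10 genes were chosen by symbol among 58278 listed genes: the receptors TNFRSF1A and TNFRSF1B, the adaptors TRADD, TRAF1, TRAF2, TRAF3 and TRAF6, and the kinases RIPK1, MAP3K7 and IKBKB. All 10 were found and all 10 passed the filter on low counts. The 12 libraries form 6 groups of 2 biological replicates each. Ctrl cells were untreated and TN cells received TNF-α at 5 ng/mL for 3 h. PRTN and BUTN cells had 15 mM propionate or 3 mM butyrate, which are short-chain fatty acids (SCFAs), for 24 h ahead of the same TNF-α, and TNPR and TNBU cells had them for 24 h once TNF-α had been given. Every SCFA group therefore also received TNF-α, and SCFA groups spent longer in treatment than TN. Cells given an SCFA without TNF-α, or kept for the same extra time without an SCFA, were not analysed here, so an SCFA group against TN compares whole treatment schedules. HK2 is a single cell line, and the replicates show its spread between cultures as the labels describe them.

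TNF-α binds TNFR1, the product of TNFRSF1A, which most cells carry, and TNFR2, the product of TNFRSF1B, which is best known from immune and endothelial cells. TNFR1 has a death domain that recruits TRADD and RIPK1, and TRADD brings in TRAF2 and the ubiquitin ligases bound to it. MAP3K7 (TAK1) and IKBKB (IKKβ) are then engaged on ubiquitin chains and activate NF-κB, whereas TNFR2 has no death domain and binds TRAF2 directly.

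The expected counts, which are the reads that RSEM assigned to each gene, summed to between 27269986 and 33851130 per library with a median of 30545923. Levels below are CPM, the counts of a gene relative to the library total after TMM scaling, and 3 counts in a library correspond to 0.0867 to 0.112 CPM. Genes past a 1.5-fold change whose limma-voom p, adjusted over the 24342 genes tested, was under 0.05 are said to be called. KRT8 and PAX8, an epithelial keratin and a renal tubular transcription factor, were abundant in each group but shifted between groups. KRT8 had group means of 725 to 783 CPM in Ctrl and TN and 1086 to 1425 CPM in the SCFA groups, whereas PAX8 went from 364 and 403 CPM to 131 to 158 CPM. The epithelial adhesion molecule EPCAM likewise went from 56.1 and 57.1 CPM to 15.3 to 22.1 CPM. GGT1 went from 221 and 194 CPM to 63.9 to 72.4 CPM. Some other epithelial and proximal tubular markers were higher with an SCFA. KRT19 went from 4.89 and 4.53 CPM to 82.4 to 119 CPM, and AQP1 from 0.540 and 0.439 CPM to 6.31 to 14.8 CPM. CDH1 went from 0.267 and 0.109 CPM to 9.94 to 14.1 CPM. The 16 such markers read summed to 2100 to 2198 CPM in Ctrl and TN and to 2201 to 2817 CPM with an SCFA. Of 16 epithelial and proximal tubular markers, 4 lay under 1 CPM in every group. Among them were the phosphate transporter SLC34A1, with at most 3 counts in a library, and the endocytic receptor LRP2, at 0 in Ctrl and TN. These proximal tubular transcripts were thus absent or nearly so in untreated cells, and LRP2 stood at 0.447 to 0.869 CPM with an SCFA. Other proximal tubular markers had Ctrl means of 221 CPM (GGT1), 1.75 CPM (CUBN), 0.540 CPM (AQP1), 0.0515 CPM (ANPEP) and 0 CPM (MME). In RNA from whole cultures, fewer cells with a transcript and less of it per cell cannot be told apart.

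Per kilobase of the canonical transcript, the only scale on which levels of different genes are compared here, TNFRSF1A was the most abundant of the 10 messages in each of the 6 groups. In Ctrl it stood at 49.8 ± 0.847 CPM per kb (SD, n = 2), followed by TRAF2 at 21.3 ± 0.814 and MAP3K7 at 16.1 ± 0.0834. RIPK1, TRADD, IKBKB and TRAF3 came next, between 12.1 and 5.18 CPM per kb. TRAF6 stood at 1.68 ± 0.0187, and TRAF1 and TNFRSF1B were lowest at 0.226 ± 0.0411 and 0.182 ± 0.0863, with overlapping replicates. TNF-α alone left this order in place, with TRADD and IKBKB overlapping. In the 4 SCFA groups TNFRSF1B moved from rank 10 to rank 8, above TRAF6, and TRADD moved above RIPK1. In TNBU, TRADD at 14.8 CPM per kb overlapped with MAP3K7 at 14.9.

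**Figure D1:**
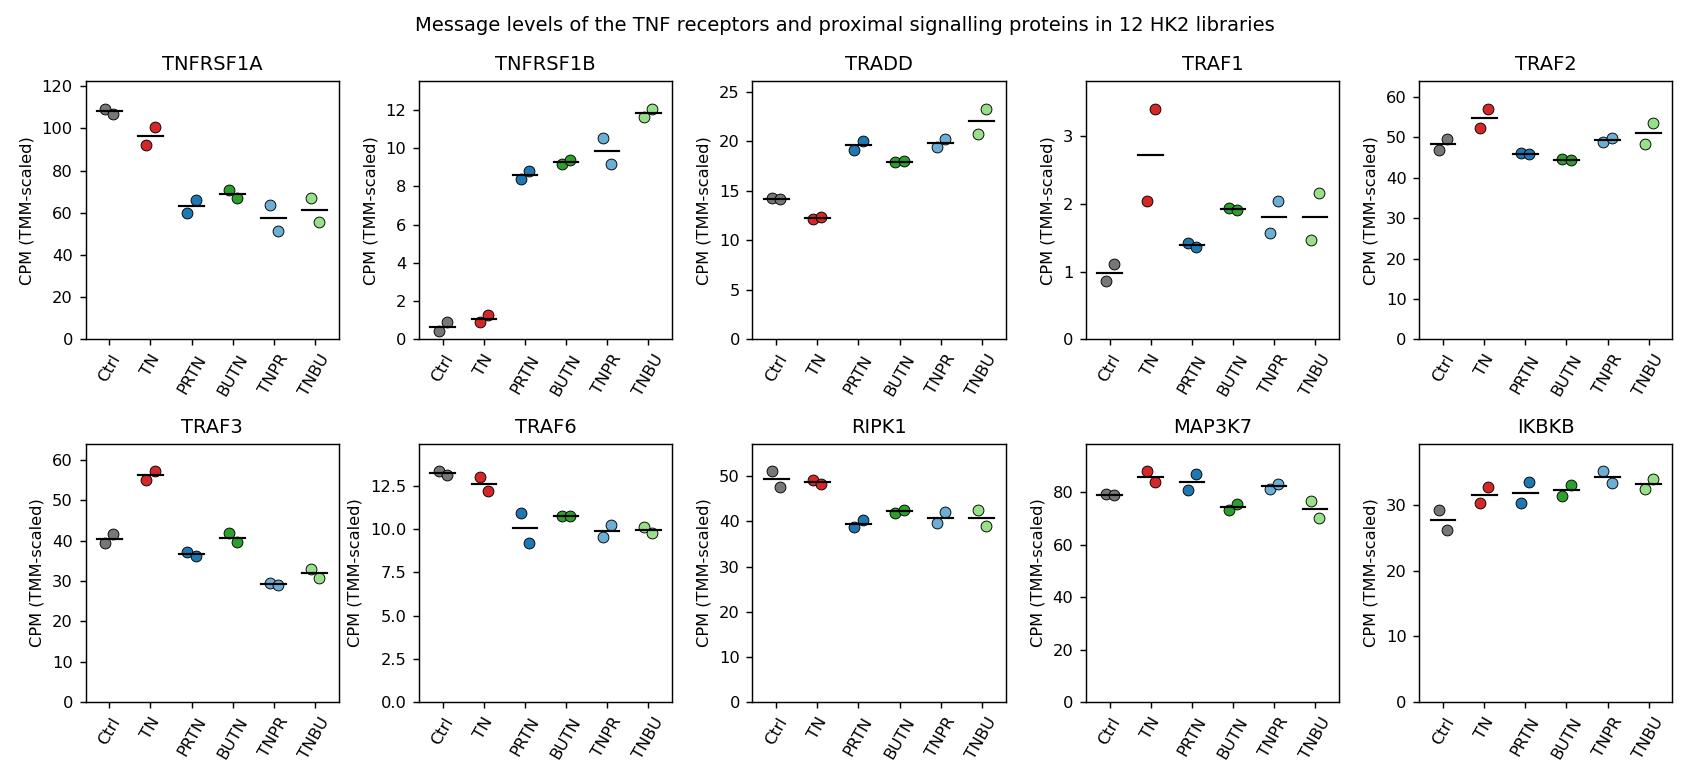
Level of each of the 10 messages in CPM (linear axes from 0) in the 12 libraries. Points are single libraries, 2 per group, and bars are group means. TNFRSF1B stood under 1.3 CPM in the 4 libraries without an SCFA and at 8.40 to 12.05 CPM in the 8 with one, while TNFRSF1A moved from 92.0 CPM or more to at most 70.6 CPM.

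TNFRSF1B (ENSG00000028137.18; GRCh38 chromosome 1, 12166991 to 12209228, plus strand, 10 exons) had the largest change of the 10 members in the SCFA groups. It was read at 0.446 and 0.896 CPM in Ctrl, from 13 and 25 counts, and at 0.894 and 1.26 CPM in TN, from 24 and 35 counts. In PRTN it was read at 8.40 and 8.82 CPM and in BUTN at 9.17 and 9.36 CPM. In TNPR it stood at 10.5 and 9.15 CPM and in TNBU at 11.6 and 12.05 CPM. The 8 SCFA libraries, with 286 to 363 counts each, lay above and did not overlap with the 4 others, which overlapped among themselves. TN vs Ctrl had a log2 fold change of 0.74 (standard error 0.36) and was not called (adjusted p = 0.323, limma-voom). Against TN the message rose 7.97-fold in PRTN, 8.59-fold in BUTN, 9.12-fold in TNPR and 10.97-fold in TNBU, with log2 fold changes from 2.99 (standard error 0.24) to 3.46 (0.24) and adjusted p from 4.67e-07 to 1.4e-07. Among all genes tested, 93.6% to 94.9% had a lower log2 fold change against TN than TNFRSF1B in these 4 contrasts. Against Ctrl the rise of TNFRSF1B was 13.3-fold to 18.3-fold. The calls against TN held under all 21 alternative settings in each of the 4 contrasts, and the smallest log2 fold change among them was 2.73.

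Because TNFR2 is typical of leukocytes and endothelium, the markers of both, and of fibroblasts, were read in the same libraries. PTPRC, the pan-leukocyte phosphatase CD45, had at most 5 counts in any library, and CD3E of T cells had at most 2. The summed level of 8 leukocyte markers was 31.0 to 36.7 CPM in Ctrl and TN and 29.0 to 53.8 CPM in the SCFA groups, most of it from CD68, a lysosomal protein. Less abundant myeloid markers were higher with an SCFA. The group means of CD14 were 0.914 and 0.765 CPM in Ctrl and TN and 2.38 to 3.15 CPM in the SCFA groups, and those of CSF1R, the M-CSF receptor, went from 0.283 and 0.146 CPM to 0.607 to 1.11 CPM. LYZ, which encodes lysozyme, stood at 0.0172 and 0.0745 CPM without an SCFA and at 0.188 to 1.02 CPM with one. The sum of 4 endothelial markers moved with TNFRSF1B, from 0.143 to 0.287 CPM in Ctrl and TN to 2.21 to 3.64 CPM in the SCFA groups. Of these, CDH5 reached 55 counts in a library, VWF 40 counts, PECAM1 31 counts and KDR 3 counts. The group means of CDH5 went from 0.105 and 0.163 CPM to 0.951 to 1.74 CPM. Those of VWF went from 0.0343 and 0 CPM to 0.766 to 1.02 CPM. The sum of 5 fibroblast markers also moved with it, from 52.6 to 59.6 CPM in Ctrl and TN to 204 to 255 CPM in the SCFA groups, most of it from the collagen gene COL1A1. The proteoglycan gene LUM had group means of 6.16 and 8.03 CPM without an SCFA and of 45.0 to 47.2 CPM with one. PDGFRB moved less, from 3.85 and 3.30 CPM to 4.54 to 6.82 CPM, and PDGFRA went from 0.0172 and 0 CPM to 0.520 to 0.741 CPM. DCN moved the other way, from 0.770 and 0.989 CPM to 0.496 to 0.556 CPM. The part of these markers in the TNFRSF1B result was not tested.

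TNFRSF1A (ENSG00000067182.7; chromosome 12, 6328757 to 6342114, minus strand, 10 exons) moved the other way. It was read at 109 and 107 CPM in Ctrl and at 92.0 and 101 CPM in TN. In PRTN it stood at 59.95 and 66.2 CPM, in BUTN at 70.6 and 67.0 CPM, in TNPR at 63.5 and 51.2 CPM and in TNBU at 66.8 and 55.8 CPM. All 8 SCFA libraries lay below all 4 others. TN vs Ctrl was not called (log2 fold change -0.17, standard error 0.10, adjusted p = 0.457, limma-voom). Against TN it fell by 34.5% in PRTN, by 40.7% in TNPR and by 36.6% in TNBU, with adjusted p of 0.000262, 4.89e-05 and 0.000161. In BUTN the log2 fold change was -0.49 (adjusted p = 0.00154), under the fold threshold. Against Ctrl it was called down in all 4 SCFA groups, with log2 fold changes from -0.65 to -0.92, and the smallest of these, in BUTN, was under the fold threshold with scaling to library size alone (-0.55). With the same scaling the falls against TN in PRTN, TNPR and TNBU were -0.46, -0.58 and -0.46 on the log2 scale, under the fold threshold, as was PRTN vs TN without TN 2 (-0.58) or PRTN 1 (-0.57) and TNBU vs TN without TNBU 2 (-0.55).

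Per kilobase, TNFRSF1A exceeded TNFRSF1B 416- and 202-fold in the 2 Ctrl libraries and 175- and 136-fold in the TN libraries. PRTN libraries had ratios of 12.1 and 12.7, BUTN libraries of 13.1 and 12.2, TNPR libraries of 10.2 and 9.51 and TNBU libraries of 9.75 and 7.87. The TNFRSF1B share of the 2 receptor messages thus went from 0.240% to 0.730% without an SCFA to 7.10% to 11.3% with one. The summed level of both receptors was 42.6 to 50.5 CPM per kb without an SCFA and 26.1 to 35.0 with one, since the rise of TNFRSF1B was smaller in absolute terms than the fall of TNFRSF1A. The Ctrl ratios rest on 13 and 25 counts of TNFRSF1B and are correspondingly imprecise.

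**Figure D2:**
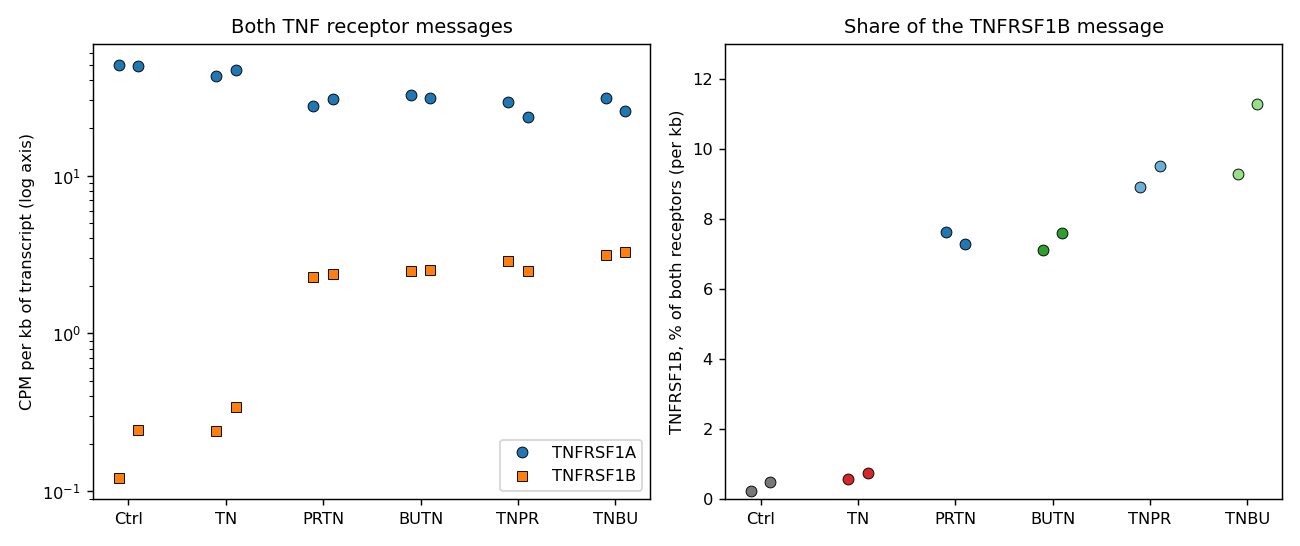
Left, CPM per kilobase of transcript (log axis) of TNFRSF1A (circles) and TNFRSF1B (squares) in each of the 12 libraries; right, TNFRSF1B as a percentage of both receptor messages per kilobase (axis from 0). The receptors lie at least 136-fold apart in Ctrl and TN and at most 13.1-fold apart in the SCFA groups.

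The sequence just upstream of the start is shown for the 2 receptors, which moved in opposite directions, and for TRAF3 and TRAF1, the members with an adjusted p under 0.05 in TN vs Ctrl. Sequences are RefSeq windows on GRCh38.p14, read 5′ to 3′ on the strand of the gene and shown only where they lie outside the annotated gene. Capitals mark the GC box GGGCGG or its reverse complement, and in TRAF3 also a match to the NF-κB motif.
TNFRSF1A, chr12:6342115-6342326, minus strand: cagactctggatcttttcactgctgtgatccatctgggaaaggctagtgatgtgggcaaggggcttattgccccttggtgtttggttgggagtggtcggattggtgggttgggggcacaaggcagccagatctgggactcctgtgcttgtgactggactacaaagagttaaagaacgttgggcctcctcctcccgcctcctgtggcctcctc
TNFRSF1B, chr1:12166741-12166990, plus strand: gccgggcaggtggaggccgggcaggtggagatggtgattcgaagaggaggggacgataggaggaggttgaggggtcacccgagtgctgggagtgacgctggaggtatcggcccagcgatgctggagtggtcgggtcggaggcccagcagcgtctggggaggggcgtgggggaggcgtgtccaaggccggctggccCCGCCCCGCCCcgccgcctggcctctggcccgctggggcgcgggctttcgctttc
TRAF3, chr14:102777199-102777448, plus strand: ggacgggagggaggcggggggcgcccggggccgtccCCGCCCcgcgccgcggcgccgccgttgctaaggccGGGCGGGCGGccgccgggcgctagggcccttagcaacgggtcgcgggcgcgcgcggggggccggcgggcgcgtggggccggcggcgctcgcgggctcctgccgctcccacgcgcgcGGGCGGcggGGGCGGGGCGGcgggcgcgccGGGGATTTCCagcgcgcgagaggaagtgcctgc
TRAF1, chr9:120929174-120929421, minus strand: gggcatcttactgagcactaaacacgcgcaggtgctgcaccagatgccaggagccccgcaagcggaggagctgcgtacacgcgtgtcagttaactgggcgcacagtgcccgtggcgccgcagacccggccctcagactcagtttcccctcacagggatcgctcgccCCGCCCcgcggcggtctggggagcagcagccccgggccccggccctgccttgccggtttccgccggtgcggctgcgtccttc

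Over the 250 bases before the RefSeq start, the TNFRSF1A window had no GC box and 56.8% G and C. The TNFRSF1B window had 2 overlapping GC boxes and 72.4% G and C. The TRAF3 window had 6 GC boxes and 86.4% G and C, and the window of the first TRAF1 start had 1 GC box and 70% G and C. The GC box, searched on both strands, occurred in 42.6% of 35116 RefSeq windows of the same length, and the median window had 58% G and C. An NF-κB motif match, GGGGATTTCC, was present in TRAF3, starting 33 bases before the start site, and was absent from the windows of the other 7 members that had one. That motif occurred in 9.96% of all windows. These matches describe the letters of these windows and were not tested for binding.

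TRAF1 (ENSG00000056558.10; chromosome 9, 120902393 to 120929173, minus strand), an adaptor that pairs with TRAF2 and whose message is a known NF-κB target, was the member called in TN vs Ctrl. It was read at 0.858 and 1.11 CPM in Ctrl, from 25 and 31 counts, and at 2.05 and 3.41 CPM in TN, from 55 and 95 counts. In PRTN it stood at 1.42 and 1.37 CPM, in BUTN at 1.94 and 1.91 CPM, in TNPR at 1.57 and 2.05 CPM and in TNBU at 1.47 and 2.16 CPM. The TN libraries lay above Ctrl but differed from each other more than the replicates of any of the other 5 groups, and 1 TNBU library lay above the lower of them. TN vs Ctrl differed by 1.43 on the log2 scale, with a standard error of 0.32 (adjusted p = 0.0299, limma-voom). The call was lost without Ctrl 1 (log2 fold change 1.24, adjusted p = 0.247), without Ctrl 2 (1.61, 0.127), without TN 2 (1.06, 0.152) and in a fit of the 2 groups alone (1.45, 0.0567). Of all genes tested, 1.30% were called in TN vs Ctrl, with 0.764% upward and 0.534% downward, beside 1 and 0 of the 10 members.

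Against TN, TRAF1 fell by 47.3% in PRTN (adjusted p = 0.0128), a call that was lost without TN 2 (log2 fold change -0.58, adjusted p = 0.127). In BUTN, TNPR and TNBU its log2 fold changes against TN were -0.46, -0.57 and -0.56, with adjusted p from 0.0833 to 0.15. Without TN 1 these 3 became -0.85, -0.96 and -0.94 and passed the test, with adjusted p from 0.00797 to 0.0148. Against Ctrl, TRAF1 was called up in BUTN (0.97), TNPR (0.86) and TNBU (0.86), with adjusted p of 0.0237 to 0.0429, and these calls were lost under 5, 10 and 11 of 21 alternatives. Without Ctrl 1, for example, the 3 adjusted p were 0.15, 0.208 and 0.21.

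TRAF3 (ENSG00000131323.14; chromosome 14, 102777449 to 102911500, plus strand) restrains non-canonical NF-κB signalling by holding the kinase MAP3K14 (NIK) for degradation. It was read at 39.3 and 41.6 CPM in Ctrl and at 55.1 and 57.1 CPM in TN. In PRTN it stood at 37.1 and 36.3 CPM, in BUTN at 41.8 and 39.6 CPM, in TNPR at 29.5 and 29.0 CPM and in TNBU at 33.0 and 30.7 CPM. The TN libraries were the highest of the 12, the PRTN libraries lay just below Ctrl, the BUTN libraries overlapped with it, and the TNPR and TNBU libraries were below all others. In TN vs Ctrl the log2 fold change was 0.47 (standard error 0.07, adjusted p = 0.00182, limma-voom), a 1.39-fold difference under the fold threshold. Against TN it fell by 34.6% in PRTN, by 47.8% in TNPR and by 43.3% in TNBU, with adjusted p from 5.29e-06 to 1.59e-07. In BUTN the log2 fold change was -0.46 (adjusted p = 6.26e-05), again under the fold threshold. PRTN vs TN also fell under that threshold with library size alone (-0.46).

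In TNPR and TNBU, TRAF3 was also lower than in Ctrl, with log2 fold changes of -0.46 and -0.35 (adjusted p = 8.93e-05 and 0.000984), under the fold threshold. Adding the SCFA after instead of before TNF-α gave a log2 difference of -0.33 for propionate (standard error 0.07, adjusted p = 0.108) and of -0.35 for butyrate (0.07, 0.0398). The schedules differ also in when the cells were collected after TNF-α, which cannot be told apart from the order of addition.

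TRADD (ENSG00000102871.15; chromosome 16, 67154185 to 67159909, minus strand), the adaptor that docks on the death domain of TNFR1, was read at 14.3 and 14.2 CPM in Ctrl and at 12.1 and 12.4 CPM in TN. In PRTN it stood at 19.2 and 20.0 CPM, in BUTN at 17.9 and 18.0 CPM, in TNPR at 19.4 and 20.2 CPM and in TNBU at 20.7 and 23.3 CPM. All 8 SCFA libraries lay above all 4 others. Against TN it rose 1.59-fold in PRTN, 1.61-fold in TNPR and 1.79-fold in TNBU (adjusted p = 2.67e-05, 2.09e-05 and 3.94e-06, limma-voom). In BUTN the difference was 1.46-fold (adjusted p = 0.000181), under the fold threshold. TN vs Ctrl was not called (log2 fold change -0.21, adjusted p = 0.266). Against Ctrl the TNBU level was called, at 1.55-fold, and this call was lost without TNBU 2 (log2 fold change 0.53). TRADD counts were fractional in 9 of 12 libraries, so that some of its reads were shared with other genes in counting.

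TRAF2 and TRAF6 were called in no contrast with TN or Ctrl. TRAF2, the adaptor of both TNF receptors, lay between 44.3 and 57.0 CPM over the 12 libraries and had its highest group mean in TN, at 52.3 and 57.0 CPM. Its log2 fold change against TN ran from -0.10 in TNBU to -0.30 in BUTN, and in PRTN and BUTN it had adjusted p of 0.00868 and 0.00316. TRAF6, best known downstream of interleukin-1 and Toll-like receptors, lay at 12.2 to 13.3 CPM in Ctrl and TN and at 9.22 to 10.9 CPM in the SCFA groups, without overlap. Its log2 fold change against TN ran from -0.22 in BUTN (adjusted p = 0.0737) to -0.35 in TNPR (adjusted p = 0.0101).

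Of the 3 kinases, RIPK1, the death-domain kinase of the TNFR1 complex, was lower in the SCFA groups by a small margin. It was read at 47.7 to 51.1 CPM in Ctrl and TN and at 38.7 to 42.6 CPM in the SCFA groups, without overlap. Against TN it fell by 19.0% in PRTN, by 13.4% in BUTN, by 16.3% in TNPR and by 16.5% in TNBU, with adjusted p from 0.00231 to 0.0224, all under the fold threshold. RIPK1 counts were fractional in 6 libraries, and an antisense long non-coding gene overlaps its locus on chromosome 6. MAP3K7 lay between 70.3 and 88.0 CPM, and its log2 fold change against TN was -0.21 and -0.23 in the butyrate groups BUTN and TNBU (adjusted p = 0.0136 and 0.00891) and -0.04 and -0.06 in the propionate groups PRTN and TNPR (adjusted p = 0.658 and 0.415). The direct difference between propionate and butyrate for MAP3K7 was 0.18 for PRTN vs BUTN and 0.16 for TNPR vs TNBU, with adjusted p of 0.232 and 0.51. IKBKB, on chromosome 8, lay between 26.1 and 35.1 CPM, with log2 fold changes against TN of 0.01 to 0.12 and adjusted p from 0.233 to 0.892.

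**Figure D3:**
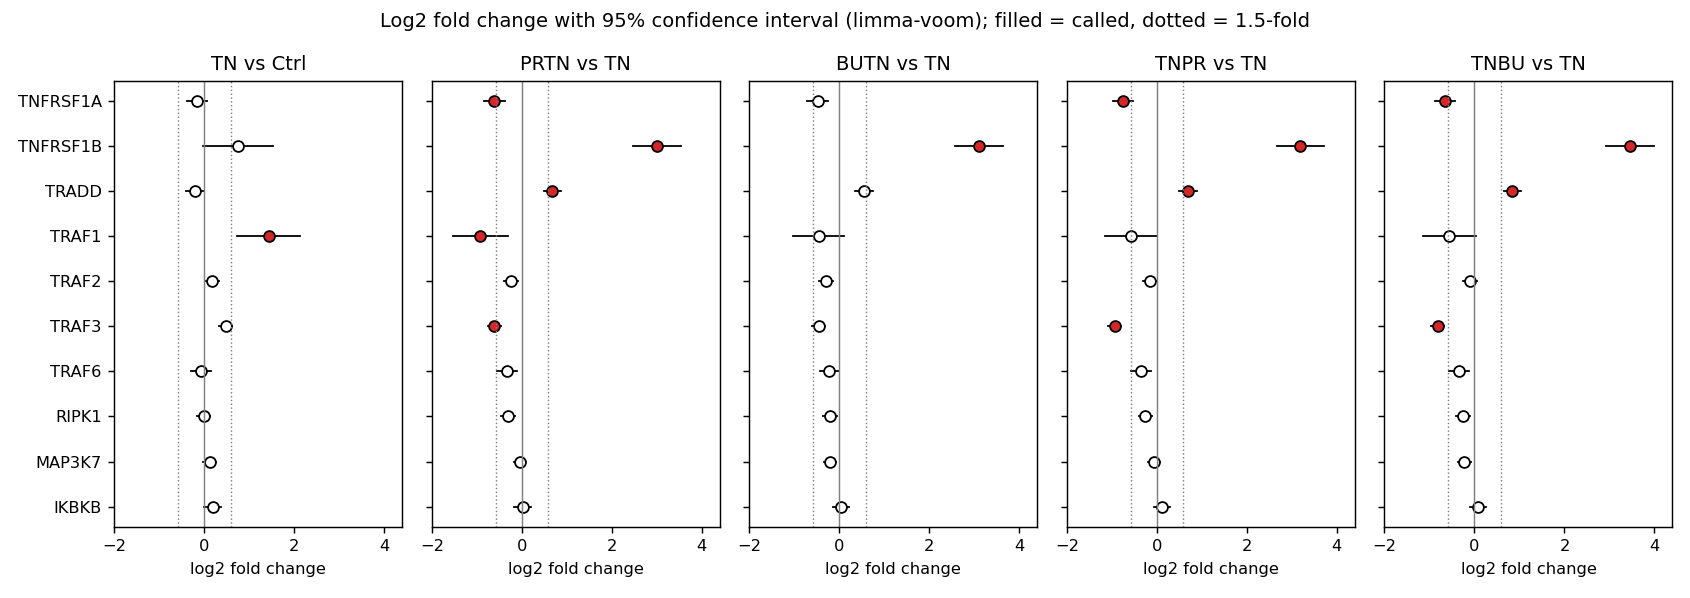
Log2 fold change (horizontal axis) of the 10 members in TN vs Ctrl and in each SCFA group against TN, with the 95% confidence interval from limma-voom as a line. Filled points were called, and dotted lines mark a fold change of 1.5. TNFRSF1B stands near 3 to 3.5 in the 4 right-hand panels, and the 3 kinases at the bottom stay inside the dotted lines in all 5 panels.

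Counted together, 2 members were called up and 3 down in PRTN vs TN, 1 up and 0 down in BUTN vs TN, and 2 up and 2 down in both TNPR vs TN and TNBU vs TN. The 4 comparisons share the TN libraries. Among all genes tested, 40.6% were called in PRTN vs TN (23.9% up, 16.7% down), 37.9% in BUTN vs TN (23.1% up, 14.8% down), 41.8% in TNPR vs TN (24.9% up, 16.9% down) and 41.6% in TNBU vs TN (25.0% up, 16.5% down). The members were called at 50%, 10%, 40% and 40%, which is near these shares in all but BUTN, where it is lower. The median absolute log2 fold change of the members was 0.47, 0.38, 0.46 and 0.45 in these contrasts, against 0.71, 0.66, 0.73 and 0.71 for all genes. All genes here include any with a geometric mean of at least 1 count, and they were not matched to the members by level. Without the fold threshold, an option added after the data were seen, 8, 7, 6 and 7 of 10 members had an adjusted p under 0.05, beside 56.4%, 55.1%, 57.7% and 57.4% of all genes. In TN vs Ctrl these were 2 of 10 members, TRAF1 and TRAF3, beside 3.51% of all genes. The members were chosen with earlier results of these data known, so these shares are not a test. For BUTN vs TN, where limma-voom called 0 members down, 6 were lower at an unadjusted p under 0.05, and edgeR and DESeq2 also called 0 down. In TN vs Ctrl the 0 members down stand beside 1 at an unadjusted p under 0.05 and 0 by edgeR and DESeq2.

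Against Ctrl, 2, 3, 3 and 4 members were called in PRTN, BUTN, TNPR and TNBU, beside 39.4%, 36.9%, 40.4% and 40.0% of all genes. These again share control libraries.

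The treatments were also compared directly, and no member was called by limma-voom, edgeR or DESeq2 in any of these 4 contrasts. At an unadjusted p under 0.05 the counts were 1 of 10 in TNPR vs PRTN, 4 in TNBU vs BUTN, 2 in PRTN vs BUTN and 2 in TNPR vs TNBU. The shares of all genes called were 0.160%, 0.267%, 0.168% and 0.00822%. For TNFRSF1B the log2 difference of PRTN vs BUTN was -0.11, with a 95% confidence interval from -0.37 to 0.16, and that of TNPR vs TNBU was -0.27 (interval -0.52 to -0.01, adjusted p = 0.566). For TNFRSF1A the corresponding values were -0.13 (interval -0.35 to 0.10) and -0.10 (interval -0.33 to 0.14). Propionate and butyrate were given at different doses, so these contrasts compare the 2 treatments as given and not the 2 molecules.

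The genes whose 5 log2 fold changes against Ctrl lay nearest to those of a called member were looked up among 12279 genes. These had a mean of at least 1 CPM and a symbol that passed a filter on names. The filter left out symbols with a hyphen or lower-case letters and families such as LINC and numbered FAM or TMEM genes, which may lie nearer. For TNFRSF1B the nearest were DLGAP3, DLL4 and PLAT, at root mean square differences of 0.0536, 0.128 and 0.163 on the log2 scale. For TNFRSF1A they were CDKN2A, AKNA and ZNF740, at 0.0299 to 0.0355. For TRADD they were THEM6, CLCN5 and ANAPC13, at 0.0502 to 0.0592, and for TRAF3 RASEF, CDC42EP2 and SEC14L2, at 0.0466 to 0.0641. TRAF1, with few counts, had no neighbour nearer than IFITM2 at 0.187.

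A further 32 genes of the pathway were read beside the members, of which 31 were tested. TN vs Ctrl called 3 of them up and 0 down: the ubiquitin ligases BIRC2 and BIRC3, which ride on TRAF2, and the deubiquitinase TNFAIP3 (A20), which limits NF-κB. BIRC2 rose 1.54-fold and BIRC3 2.04-fold, with adjusted p of 0.00156 and 4.88e-05. The BIRC2 change fell under the fold threshold with library size alone (log2 fold change 0.57), without Ctrl 2 (0.55) and without TN 1 (0.56). Beside the 0 genes called down by limma-voom, edgeR and DESeq2 also called 0, and 2 were lower at an unadjusted p under 0.05. PRTN vs TN called 6 of the list up and 6 down, BUTN vs TN 3 up and 4 down, TNPR vs TN 4 up and 9 down, and TNBU vs TN 5 up and 8 down. The list was thus called at 38.7%, 22.6%, 41.9% and 41.9%, beside 40.6%, 37.9%, 41.8% and 41.6% of all genes, which is near the share of all genes in each contrast but BUTN vs TN, where it is lower. In TN vs Ctrl the 9.68% called stand beside 1.30% of all genes. The list was chosen with earlier results of these data known, so setting these shares side by side is not a test.

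By role, the ligand TNF was listed at 3.02 and 3.73 CPM in Ctrl and 11.5 and 10.8 CPM in TN, a log2 fold change of 1.73 that was not called (limma-voom adjusted p = 0.136). The same change was called by edgeR (adjusted p = 0.0404), by DESeq2 (0.000949), in limma-voom with the 2 groups alone (0.00124) and without TNPR 1 (0.0125) or TNPR 2 (0.0124). Against TN it rose 9.44-fold in PRTN, 7.13-fold in BUTN, 4.23-fold in TNPR and 3.35-fold in TNBU, although TNPR replicates stood apart at 70.6 and 31.3 CPM. The other ligand listed, LTA, was named after its values were seen and was called down in 2 contrasts, TNPR and TNBU. Its group means were only 0.0682 to 0.364 CPM. BAG4, a silencer of the TNFR1 death domain, rose 1.76-fold in PRTN, 1.74-fold in TNPR and 1.52-fold in TNBU, the last just past the threshold. That TNBU call was lost under 11 of 21 alternatives, for example without TN 2 (log2 fold change 0.51) or TNBU 1 (0.51). ADAM17, listed with BAG4 and named after its values were seen, was lower than TN by 28.3% to 42.3%. It was called down in 3 of the 4 contrasts, and MADD of the same role in 0. TRAF4, another TRAF family adaptor, fell by 38.4% to 46.5% in the 4 SCFA groups. The rest of that role, named after their values were seen, did not all move with it. TRAF7 stood 1.39-fold to 1.71-fold above TN and was called up in 3 of the 4 contrasts. TRAF5 was called down in 2 and TANK in 0. BIRC3 went further up, 2.32-fold in PRTN, 2.67-fold in BUTN and 1.62-fold in TNBU, whereas BIRC2 was called in none of the 4. Without TNBU 1 the BIRC3 change in TNBU was 0.50 on the log2 scale, under the fold threshold.

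MAP3K14, the kinase that TRAF3 restrains, rose in all 4 SCFA groups, 2.20-fold in PRTN, 2.04-fold in BUTN, 2.29-fold in TNPR and 2.07-fold in TNBU. Of the 8 kinase complex genes listed, the only other one called in these 4 contrasts was MAP3K5, named after its values were seen, which was called down in TNPR and TNBU. TNFAIP3 fell by 54.9% in PRTN, fell by 41.2% in BUTN, fell by 68.0% in TNPR and fell by 63.5% in TNBU against TN. Its group means in the SCFA groups, 156 to 287 CPM, lay between those of Ctrl, at 110 CPM, and TN, at 489 CPM. Of the death arm, MLKL, the effector of necroptosis, fell by 74.8% to 78.8%. CFLAR, the caspase-8 inhibitor cFLIP, chosen after its values were seen, fell by 73.0% to 76.1% in the same contrasts. RIPK3, the kinase upstream of MLKL, had at most 2 counts in any library and was not tested.

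**Figure D4:**
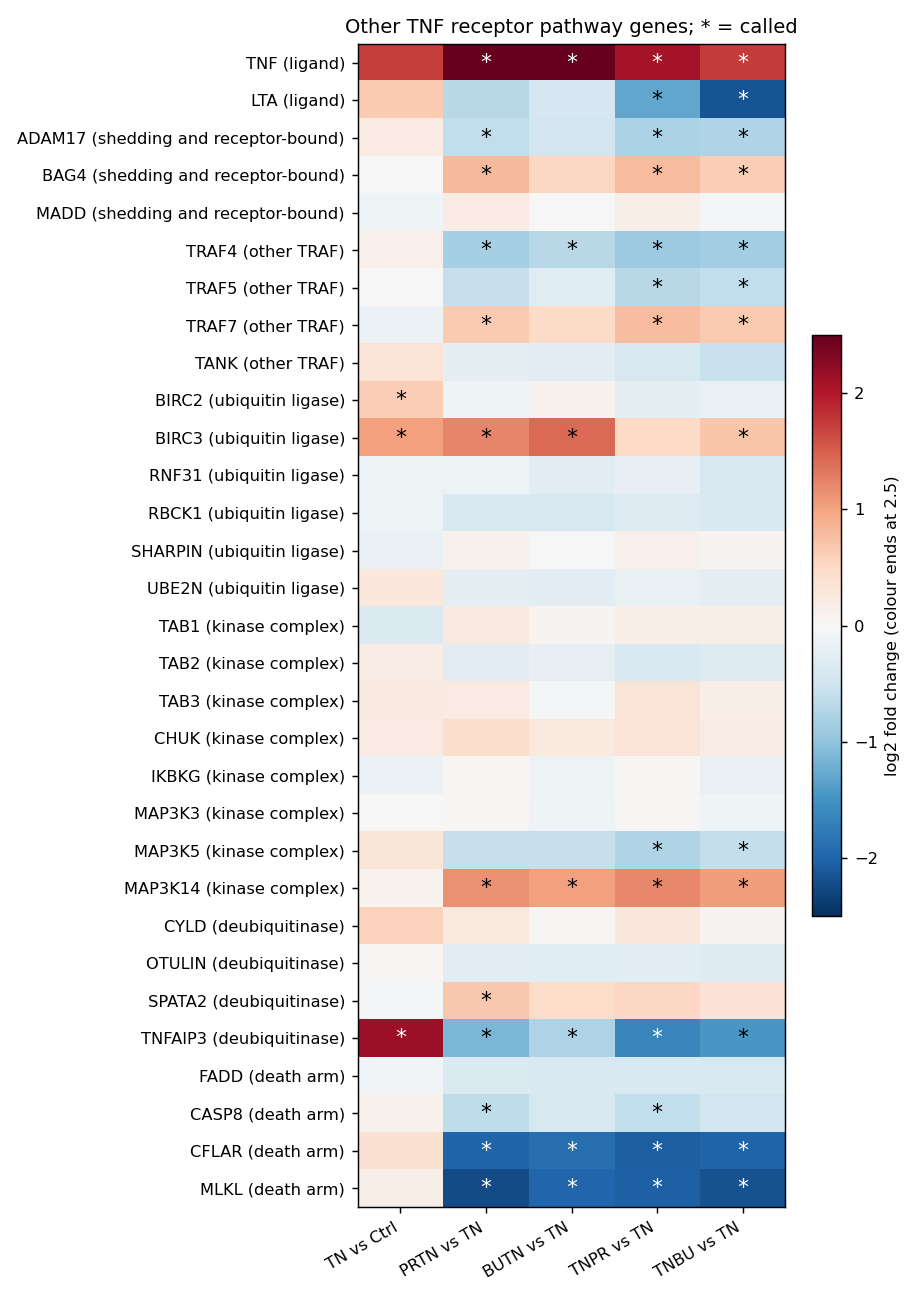
Log2 fold change of 31 tested pathway genes (rows, with their role) in TN vs Ctrl and in each SCFA group against TN (columns); the colour scale ends at 2.5 and asterisks mark called genes. TNF reaches 3.24 in PRTN vs TN, and the lowest rows, CFLAR and MLKL, lie between -1.89 and -2.24 in the 4 SCFA columns.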

How the data were processed

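Expected counts per gene were read in 12 HK2 libraries. The authors made these deposited expected counts from TruSeq stranded mRNA libraries sequenced on an Illumina HiSeq instrument, aligned to GRCh38 and counted by RSEM on GENCODE annotation. The submitters' processing notes name FastQC 0.11.5, STAR 2.6.1a and RSEM. The strand setting of RSEM is not given in the sources used here, and 19.3% of the values are not whole because reads that match several genes are divided. The general treatment text in the labels names other compounds, so the labels of single libraries set the groups. Libraries were not pooled.

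Genes with a geometric mean (1 added to each count, then subtracted) of at least 1 were kept, which removed 33936 and left 24342. TMM factors (edgeR 4.0.16) and limma-voom (limma 3.58.1, R 4.3.3) were fitted over all 12 libraries without rounding, with Benjamini-Hochberg adjustment over all kept genes (prior degrees of freedom 6.12). Calls needed an adjusted p under 0.05 and more than a 1.5-fold change. Alternatives were the quasi-likelihood test of edgeR and DESeq2 1.42.0 on rounded counts, other scaling, filters and fold thresholds, fits of only the groups compared, a replicate block and leaving out each library. The method was tested on simulated counts for TN vs Ctrl alone, with few genes changed, so that test does not cover the SCFA contrasts. Floors of 3 counts cover counting error only, while the limma-voom intervals and p-values measure the spread between libraries, with 2 cultures per group.

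The members, the 32 pathway genes and the 33 cell type markers were chosen with earlier results of these data known. All members are named. Pathway genes are named by role if called in TN vs Ctrl or if they had the largest mean change against TN among called genes, and others are said to be chosen later. Up to 3 nearest genes are given per called member. Positions are from GENCODE release 44 on GRCh38, and promoter windows from RefSeq on GRCh38.p14 were matched for 8 members.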

Additional observations from a re-analysis of the deposited data

Results flagged for a closer look

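Within the pathway list, 3 differences between giving the SCFA before and after TNF-α passed the test of the difference itself. BIRC3 was lower when the SCFA came second, at 685 CPM in TNPR against 1130 CPM in PRTN (log2 difference -0.72, limma-voom adjusted p = 0.00273) and at 794 CPM in TNBU against 1298 CPM in BUTN (-0.72, adjusted p = 0.00207). TNFAIP3 was lower in TNBU, at 179 CPM, than in BUTN, at 287 CPM (-0.69, adjusted p = 0.000137). The call for BIRC3 in TNPR vs PRTN was lost without PRTN 1 (-0.73, adjusted p = 0.0553), and that in TNBU vs BUTN without TNBU 2 (-0.56, under the fold threshold) and with only the groups compared (adjusted p = 0.129). The TNFAIP3 call was lost with only the groups compared (adjusted p = 0.0654). The ligand TNF was not called by limma-voom over all 12 libraries, although its mean was 50.9 CPM in TNPR against 105 CPM in PRTN. In TNBU it was 38.6 CPM against 79.5 CPM in BUTN. Each TNF difference was called under 3 of 21 alternatives, all of which left out a TNPR or TNBU library. Over the alternatives the log2 difference of TNF ran from -1.76 to -0.60 for propionate and from -1.45 to -0.75 for butyrate. The time between TNF-α and collection differs between these schedules and cannot be told apart from the order of addition. None of the 10 members was called in these contrasts.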

How the results depend on the processing

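Of 2727 values of single members under the alternatives, 2666 kept their call, 55 lost it and 6 gained it, and no called value changed sign, while 69 changed sign with no call in either setting. Of 1323 values of CFLAR and the pathway genes named by the stated rule, 1278 kept their call, 32 lost it, 13 gained it and 0 called values changed sign. TNFRSF1B kept its calls against TN throughout. With 2 libraries a group, calls of small or low-count changes (TRAF1, TNFRSF1A near 1.5-fold) are the least firm. Leaving out a library leaves its group with 1 sample, which is assumed to vary like the others.

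Members called up in TN vs Ctrl, 1 in the report, numbered 0 when only the groups compared were fitted and 2 at any fold change, and 0 to 1 without single libraries (0 without Ctrl 1, Ctrl 2 or TN 2). With a fold change over 2, 1 member was up and 0 down in each of PRTN, TNPR and TNBU against TN. With library size alone, 1 was down in each of these 3 and 2 were up in BUTN. At any fold change, an option chosen after seeing the data, 6, 5, 4 and 5 were down in PRTN, BUTN, TNPR and TNBU against TN, 2 were up in BUTN, and 1 was down in TNBU vs BUTN. Leaving out a library gave 1 to 3 down in PRTN vs TN (1 without TN 2), 0 to 1 in BUTN vs TN (1 without TN 1) and 1 to 3 in TNBU vs TN (1 without TNBU 2).

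Pathway genes up in TN vs Ctrl, 3 in the report, numbered 5 with DESeq2 and with only the groups compared, 8 at any fold change (with 1 down), and 2 to 5 without single libraries (5 without TNPR 1 or TNPR 2). With a fold change over 2 the counts up and down were 3 and 3 in PRTN, 2 and 4 in TNPR and 2 and 4 in TNBU against TN, with 2 down in BUTN. With library size alone, 6 were up in BUTN, and 5 were down in TNPR and in TNBU. At any fold change, PRTN had 11 up and 14 down, BUTN 7 up and 15 down, TNPR 9 up and 16 down, and TNBU 16 down. Without TNBU 1, 3 were up in TNBU, and the range without single libraries was 3 to 5.

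Library size alone moved the median gene by 0.155, 0.153, 0.173 and 0.196 (log2) in PRTN, BUTN, TNPR and TNBU against TN, and the share of upward calls among all calls went from 58.9% to 68.5% in PRTN, from 60.9% to 71.2% in BUTN, from 59.6% to 69.8% in TNPR and from 60.2% to 72.0% in TNBU. In TN vs Ctrl it went from 58.9% to 44.3%. In TNBU vs BUTN it went from 35.4% to 45.9%. Over all genes in TN vs Ctrl, 186 up and 130 down became 67 and 40 at a fold change over 2 and 549 and 305 at any fold change. The replicate numbers did not pair the libraries, since same-numbered deviations correlated from -0.0334 to 0.0670 over 15 pairs of groups. The replicate block left 1 member up in TN vs Ctrl. It changed no call of a member, of CFLAR or of a pathway gene named by the stated rule. The causes of these changes were not tested.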
